A study of Homo sapiens with 32 samples.

Results

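MGMT encodes the DNA repair protein that takes alkyl groups off damaged guanine, and it is described here by the islands of H3K27me3 that were called over it in MDA-MB-231 cells. It is 1 gene of 19974 protein-coding genes in the RefSeq table, and it was chosen from these data because its island coverage was higher in cells that received both an EZH2 inhibitor and a p38 inhibitor than in control cells. MDA-MB-231 is an established human triple-negative breast cancer line. Control cells received no inhibitor, and the other 3 groups were treated for 24 h with the EZH2 inhibitor alone (labelled EPZ in the treatment field and EP7 in the titles), the p38 inhibitor alone (labelled P38i), or both (labelled combo). Each of the 4 groups had 4 H3K27me3 ChIPmentation libraries. All came from 1 cell line, no vehicle is named for the controls, and nothing says that replicates were separate cultures, so p-values measure the spread between these libraries, which may be technical.

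H3K27me3 is a histone mark of silenced chromatin, written by Polycomb repressive complex 2, whose catalytic subunit is EZH2. The p38 MAP kinases are stress-activated signalling enzymes. MGMT acts alone: the protein moves the alkyl group from guanine onto a cysteine of its own and is used up in doing so, which makes the amount of MGMT in a cell its limit for repairing such damage. In many tumours the CpG-rich promoter of MGMT is silenced by DNA methylation, a different mark from the one measured here, and loss of MGMT is known for making tumours sensitive to alkylating drugs such as temozolomide.

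The gene lies on the plus strand of chromosome 10, from 129467241 to 129770983 on GRCh38, a span of 303.7 kb. The 250 bases before its start (chr10:129466991-129467240, plus strand, RefSeq, GRCh38.p14) are shown because islands came near to them from outside. Capitals mark the GC box GGGCGG or its reverse complement CCGCCC, the motif of Sp1-type factors.
MGMT promoter: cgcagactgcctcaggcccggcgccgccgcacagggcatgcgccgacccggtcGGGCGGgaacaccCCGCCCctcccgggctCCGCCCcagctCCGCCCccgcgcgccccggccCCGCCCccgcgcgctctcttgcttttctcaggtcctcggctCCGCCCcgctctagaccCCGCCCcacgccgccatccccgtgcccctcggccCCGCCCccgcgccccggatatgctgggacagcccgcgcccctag
This stretch holds 8 GC boxes on either strand, and 0.885% of 15812 promoter windows of the same length hold as many; 56.0% hold at least 1. It has 36 CpG dinucleotides against a median of 17, and 80.4% G and C against a median of 62.4%. Neither TATAAA nor CCAAT occurs in it on either strand, while 9.25% and 34.4% of the promoter windows hold these motifs. No base of the stretch lay in an island in any of the 16 libraries.

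The deposited lists give only where islands start and end, with no score or read count. Per library they held 53290 to 85194 islands that covered 474 to 674 Mb. Sequencing depth is unknown, and coverage below means the percent of a stretch lying in called islands, which is not a level of the mark. Control libraries covered 589 ± 78.0 Mb (SD, n = 4), EPZ 527 ± 56.4 Mb, P38i 620 ± 61.4 Mb and combo 565 ± 43.2 Mb, so the combo mean over the whole genome lay below the control mean. Of 7 genes of mesenchymal-like breast cancer cells (VIM, CD44, EGFR and others) 6 had no island in any library, and MSN stood at a mean of 3.59%. Of 7 luminal genes 4 had none and 3 had a mean coverage of at least 5%, with the progesterone receptor PGR at 95.4%. Over all protein-coding genes 68.0% had no island, and the mark does not measure expression, so these counts do not check the identity of the line.

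MGMT was sparsely covered in control cells and most covered in combo cells. In a window that takes in the gene with 2.5 kb added at either end, the controls had 12.4%, 2.27%, 3.63% and 2.4% covered in replicates 1 to 4. The EPZ libraries had 8.75%, 13.8%, 11.1% and 13.4%, and the P38i libraries 9.09%, 12.3%, 4.75% and 10.5%. The combo libraries had 19.3%, 17.4%, 21.5% and 25.6%. All 4 combo libraries thus lay above all 12 others, while the 3 other groups overlapped one another. The choice of the gene favours the separation of combo from control. Shares of tested genes with combo above each single group are given in the next paragraph, and the share above all 12 others at once was not counted. Control replicate 1, at 12.4%, stood apart from the other controls. It lay within the range of the EPZ libraries and just above the highest P38i library, at 12.3%.

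Group means ordered as control at 5.18% ± 4.88, P38i at 9.17% ± 3.23, EPZ at 11.8% ± 2.34 and combo at 20.9% ± 3.52 (SD, n = 4). The difference between combo and control was 15.8 percentage points and chose the gene, so it is given with no test. Without control replicate 1 the control mean was 2.76% ± 0.751 (n = 3) and the difference 18.2 points. EPZ lay 6.58 points and P38i 3.99 points above the same controls. Combo lay 9.18 points above EPZ and 11.8 points above P38i. The step with the p38 inhibitor was thus 3.99 points in cells without the EZH2 inhibitor and 9.18 points in cells with it, a gap of 5.19 points. Without control replicate 1 the step from control to P38i was 6.41 points and the gap 2.77 points, so much of the gap came with that 1 library. All these differences share the control or combo libraries with the contrast that chose MGMT and are descriptions. Among the 4105 genes with a mean coverage of 5 to 95%, the combo libraries all lay above the control libraries in 1.61%, above the EPZ libraries in 2.8% and above the P38i libraries in 0.828%.

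EPZ against P38i is the comparison whose libraries had no part in choosing the gene, and it asks whether the 2 inhibitors alone left MGMT at different coverage. EPZ stood 2.60 ± 2.88 points above P38i (SE, 95% confidence interval -3.55 to 8.74), which did not pass in limma's test over all 4105 genes (adjusted p = 0.538). In 2 of 4 EPZ libraries coverage was above that of every P38i library. The exact permutation test of the 4 against 4 libraries gave p = 0.257, 2-sided, where 0.0286 is the smallest it can give. In the same comparison 9.31% of tested genes were called, 377 lower and 5 higher in EPZ, and the median difference was -8.63 points. With the covered length of each library as a covariate that median was -2.21 points. MGMT was among the 494 tested genes (12.0%) with a higher mean in EPZ than in P38i, but its interval takes in 0, so its side is not settled.

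**Figure D1:**
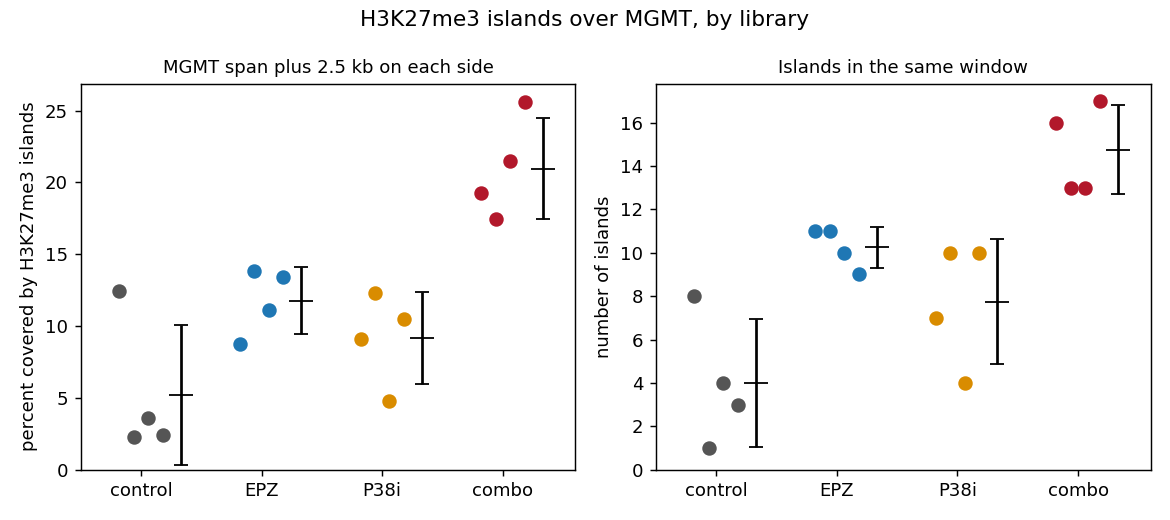
Percent of the MGMT window covered by islands (left) and number of islands in that window (right). Each point is 1 library, and the black bar gives the mean and SD of the 4 libraries of a group; the combo libraries lie between 17.4% and 25.6%, above all others, and control replicate 1 stands apart at 12.4%.

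The higher coverage went with more islands, and their median width was not larger in combo than in control. Controls had 8, 1, 4 and 3 islands in the window, EPZ libraries 11, 11, 10 and 9, P38i libraries 7, 10, 4 and 10, and combo libraries 16, 13, 13 and 17. The median width of these islands was 4.25 ± 1.97 kb in control, 3.50 ± 0.931 kb in EPZ, 3.83 ± 0.330 kb in P38i and 4.1 ± 0.577 kb in combo (n = 4). Combo also held the widest island of all, 13.2 kb in replicate 4, against 9.80 kb for the widest in a control library. Across the genome 14.4% of that combo library's islands were wider still. The widest island per library was 5.70 ± 3.32 kb in control, 5.90 ± 1.47 kb in EPZ, 5.80 ± 0.632 kb in P38i and 9.30 ± 2.84 kb in combo, where control and combo overlapped.

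The islands over MGMT recurred at certain places. In 6 stretches at least 8 of the 16 libraries were covered, 5.37% of the window in all, while 57.9% of it was covered in at least 1 library. The most constant stretch lay 89.36 to 94.96 kb after the start (chr10:129556601-129562200), where 15 libraries had an island: 3 control and all 12 treated ones. Stretches at 138.0 to 141.2 kb, 152.8 to 155.8 kb and 173.4 to 176.2 kb had islands in 12, 11 and 12 libraries. In the stretch at 173.4 to 176.2 kb, 3 libraries of every group had an island, controls included. A stretch at 248.4 to 249.0 kb had islands in 8 libraries, 1 of them control and 1 combo. 3 of these places were thus also marked in most controls.

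Places marked in combo but in no control lay at several points along the gene. There were 9 stretches covered in at least 3 combo and 0 control libraries, from -2.64 kb to 305.0 kb relative to the start, together 4.15% of the window. None lay between 21.8 and 103.0 kb. Some only edged places that controls also marked. The one at 175.6 to 176.2 kb lies within the stretch at 173.4 to 176.2 kb, where 3 controls had an island. The one at 156.2 to 158.6 kb begins where an island of control replicate 1 ended. Choosing MGMT for its higher coverage in combo than in control favours such stretches. In 5 stretches more control than combo libraries were covered, together 2.4% of the window. At least 1 library covered 14.6% of the window in control, 29.2% in EPZ, 20.3% in P38i and 49.1% in combo. Of the places so covered, 84.4% in control, 78.5% in EPZ and 80.8% in P38i were also covered in a combo library. With a bin of 10 kb taken as marked when any island touched it, 16.9% ± 11.0 of the 31 bins of MGMT were marked in control, 41.9% ± 4.56 in EPZ, 29.8% ± 9.99 in P38i and 56.5% ± 9.68 in combo. With at least 50% of the bin required the values were 3.23% ± 4.56, 7.26% ± 5.51, 2.42% ± 1.61 and 18.5% ± 4.84, and no bin was 90% covered in any library. The parts before and after the midpoint were covered to a similar extent in combo: from the start to the midpoint 19.3% ± 3.12 was covered, and from there to the end 21.5% ± 4.74. In control these parts had 5.04% ± 3.70 and 5.50% ± 6.63. The ends themselves differed in combo. The bins of 10 kb from 0 and 10 kb had 8.5% ± 17.0 and 4.2% ± 5.12, and those from 290 and 300 kb 23.7% ± 21.5 and 20.5% ± 13.7.

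**Figure D2:**
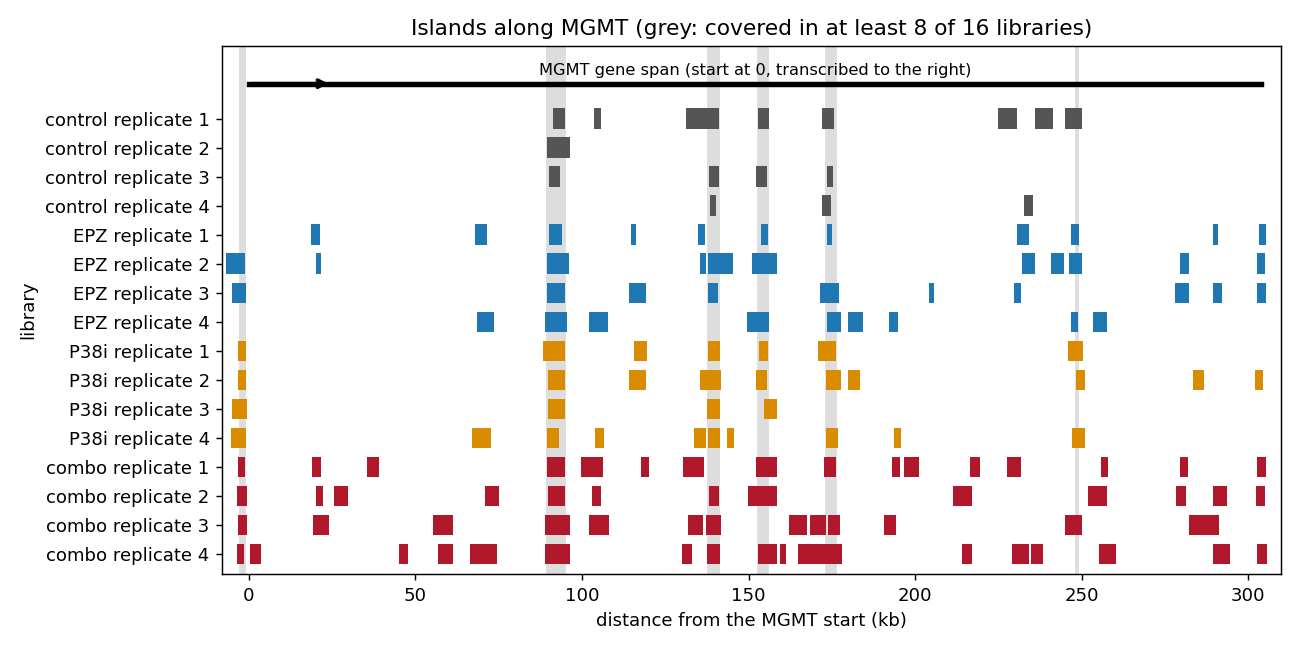
Islands along MGMT in each of the 16 libraries, with distance from the gene start in kb on the x axis and 1 row per library. Coloured blocks are islands, grey bands are the 6 stretches covered in at least 8 of 16 libraries, and the black line is the gene; the stretch at 89.36 to 94.96 kb is marked in 15 libraries, and the one just before the start in no control library.

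Just before the start the groups differed in another way. Within 2.5 kb before it, 0 of 4 control, 2 of 4 EPZ (replicates 2 and 3), 4 of 4 P38i and 4 of 4 combo libraries had an island. The covered length there ran from 1.46 to 1.86 kb in P38i and from 0.860 to 1.86 kb in combo. These islands ended 0.640 to 1.64 kb before the start, outside the 250 bases printed above. In control the nearest island before the start ended 34.0 to 67.8 kb away, and in the EPZ libraries without an island there it ended 13.4 kb away. In the first 2.5 kb of the gene only combo replicate 4 had an island. This pattern was picked after its values were seen and was not tested. Of 15812 genes with a known strand, 3467 (21.9%) had an island within 2.5 kb before the start in at least 1 library. In 6 genes it was there in all combo and no control libraries, and MGMT was the 1 gene that also had it in all P38i libraries. Choosing MGMT for its higher coverage in combo than in control favours such a pattern. At the far end of the gene, the stretch from 302.8 to 305.0 kb had islands in 0 control, 3 EPZ, 1 P38i and 3 combo libraries.

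The surroundings of MGMT were more covered than the gene itself in every library, taken as the mean of both flanks, and they differed between libraries along with it. In the 500 kb before the start, controls had 38.7%, 18.3%, 16.0% and 17.4% covered, and combo libraries 30.2%, 28.2%, 37.8% and 46.6%. EPZ libraries ran from 20.8% to 37.0% and P38i libraries from 18.1% to 28.6%. Control replicate 1 was again apart from the other controls and within the combo range, so control and combo overlapped through that library alone. Group means were 22.6% ± 10.8 in control, 29.4% ± 7.01 in EPZ, 23.6% ± 4.47 in P38i and 35.7% ± 8.34 in combo (n = 4). Without control replicate 1 the control mean was 17.2% ± 1.15 (n = 3).

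In the 500 kb after the gene the means were 17.9% ± 6.37, 20.3% ± 2.33, 20.5% ± 4.18 and 24.2% ± 7.84 in the same order, and all groups overlapped. Across the 16 libraries MGMT coverage had a Pearson r of 0.777 with the 500 kb before it and 0.639 with the 500 kb after it. Taken within groups, as deviations from the group means, r was 0.692 and 0.635. The points share a library's caller, depth and neighbourhood, and no p is given. Divided by the mean coverage of both flanks, the coverage of the gene itself was 0.230 ± 0.114 in control, 0.462 ± 0.103 in EPZ, 0.419 ± 0.195 in P38i and 0.693 ± 0.0576 in combo, where the lowest combo library had 0.618 and the highest control library 0.384. P38i replicate 4, at 0.624, lay above the lowest combo library. This ratio rests on the same combo and control coverage of MGMT that chose the gene. It was not computed for other genes and is a description.

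**Figure D3:**
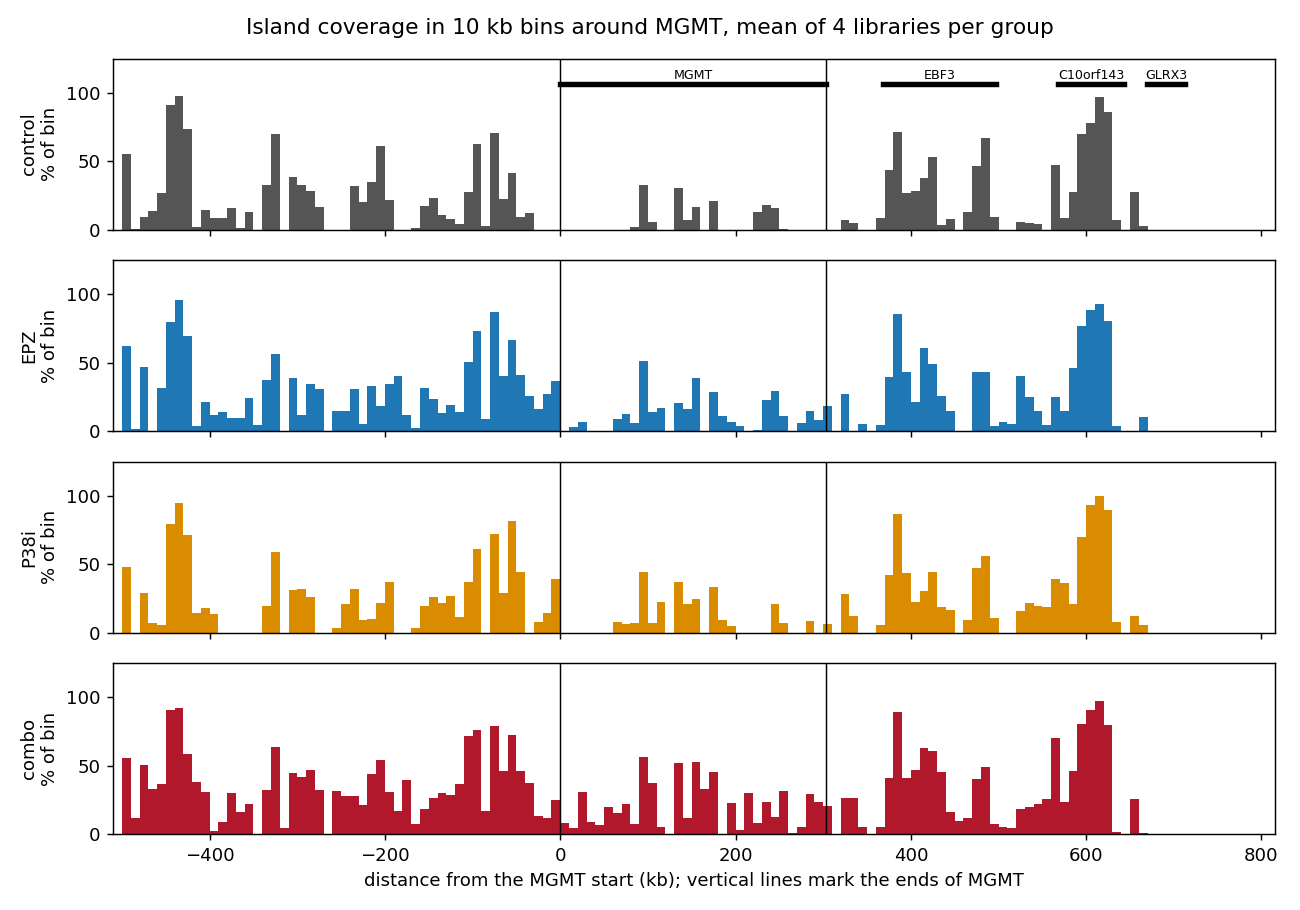
Mean percent of each 10 kb bin covered by islands, from 500 kb before MGMT to 500 kb after it, as the mean of 4 libraries per group. The x axis gives kb from the MGMT start and black lines the genes; MGMT is a low stretch between marked flanks in control, and has more and higher bars in combo.

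Protein-coding neighbours within 500 kb were few, and both that could be tested lie after MGMT. EBF3, a transcription factor of the early B cell factor family, begins 64.3 kb after the end of MGMT. Its coverage was 55.5%, 21.0%, 25.7% and 21.8% in control and 36.5%, 22.7%, 46.0% and 51.6% in combo, with means of 31.0% ± 16.5 and 39.2% ± 12.7 (n = 4). EPZ stood at 32.4% ± 5.49 and P38i at 32.3% ± 9.45. C10orf143 stood at 49.3% ± 10.4 in control, 51.2% ± 5.21 in EPZ, 54.1% ± 3.63 in P38i and 56.6% ± 8.54 in combo. Both genes overlapped between all groups, and neither passed in any of the 6 pairwise comparisons of groups in limma. The lowest adjusted p was 0.629 for EBF3 and 0.523 for C10orf143, both for combo against control. Of all tested genes 1.68% were called in that comparison, 3.17% in EPZ and 0.292% in P38i against control, 9.31% in EPZ against P38i, 1.92% in combo against P38i and 0.0% (0 genes in limma) in combo against EPZ, where 224 genes had an unadjusted p under 0.05.

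GLRX3, a glutaredoxin that handles iron-sulfur clusters, and the gene model LOC124902561 beside it had no island in any library. LOC124902531, a gene model inside the span of MGMT, had an island in combo replicate 4 alone. The islands after MGMT thus ended before GLRX3 in the 16 libraries.

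**Figure D4:**
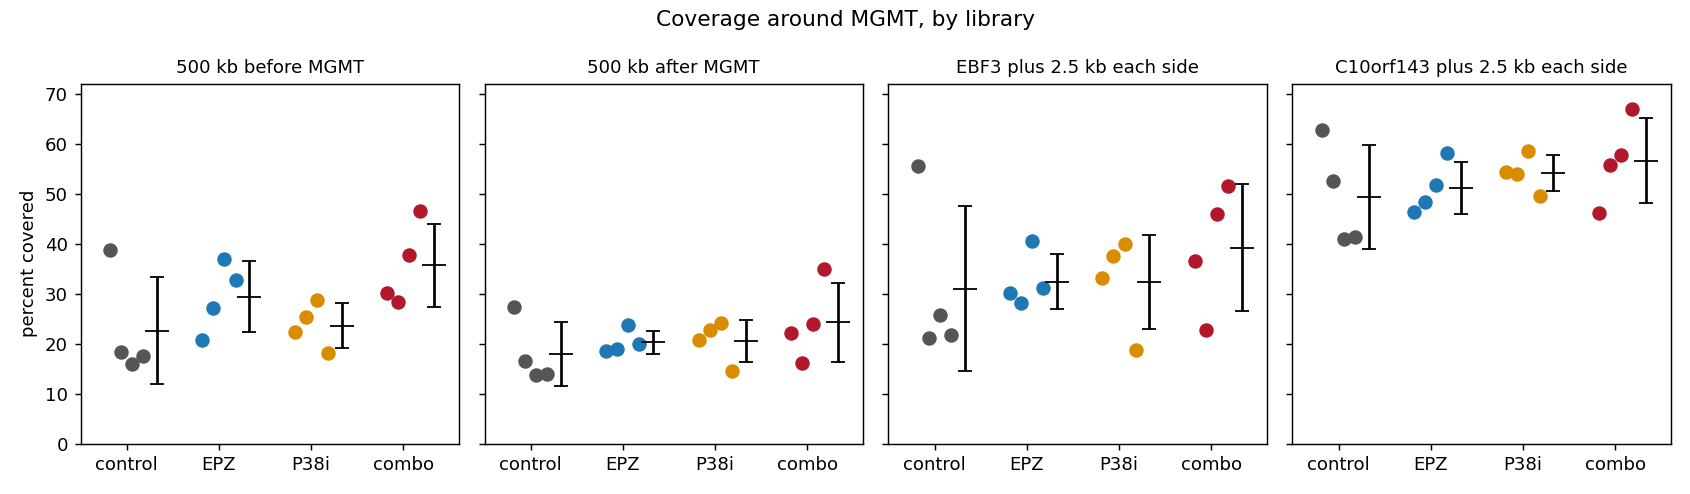
Percent covered by islands in the 500 kb before and after MGMT and over its neighbours EBF3 and C10orf143. Each point is 1 library and the black bar gives the mean and SD of 4; control replicate 1 is the highest control in all 4 panels, and the groups overlap in each.

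As a mean over the 16 libraries MGMT was the most covered of the DNA repair genes reported here, at 11.8%. That mean takes in the combo libraries whose coverage chose MGMT. In control LIG4 stood higher, at 8.54% against 5.18% for MGMT. Of 82 others, 72 had no island in any library (87.8%, against 68.0% of all protein-coding genes), and 1 reached the coverage needed for a test (1.22%, against 20.6%). Their median coverage, like that of all protein-coding genes, was 0. In base excision repair, which removes small damaged bases, 18 of 19 genes had no island, the exception being PARP1 at 0.0469% as a mean over 16 libraries. In nucleotide excision repair, which cuts out bulky damage, 11 of 13 had none, with ERCC4 and ERCC6 at 0.796% and 0.782%. In homologous recombination and the Fanconi anaemia pathway 22 of 26 had none, and the highest was MRE11, a nuclease of broken DNA ends, at 1.52%. ALKBH3, a dioxygenase that also reverses alkylation directly, had a mean of 1.71% and at most 4.21% in 1 library, and ALKBH2 had none.

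LIG4, the DNA ligase of end joining, was the 1 other repair gene reported here that could be tested. It stood at 12.9%, 7.91%, 9.17% and 4.14% in control and at 9.17%, 7.91%, 0 and 7.91% in combo. Its means were 8.54% ± 3.63 in control, 3.42% ± 3.13 in EPZ, 7.91% ± 2.3 in P38i and 6.25% ± 4.21 in combo (n = 4). Combo and control overlapped. It was not called by limma against control, in EPZ (adjusted p = 0.280), P38i (adjusted p = 0.967) or combo (adjusted p = 0.681), where 3.17%, 0.292% and 1.68% of tested genes were called. Its differences were -5.12 points in EPZ, -0.629 in P38i and -2.29 in combo, beside medians of -4.42, 2.90 and -1.05 over all tested genes.

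**Figure D5:**
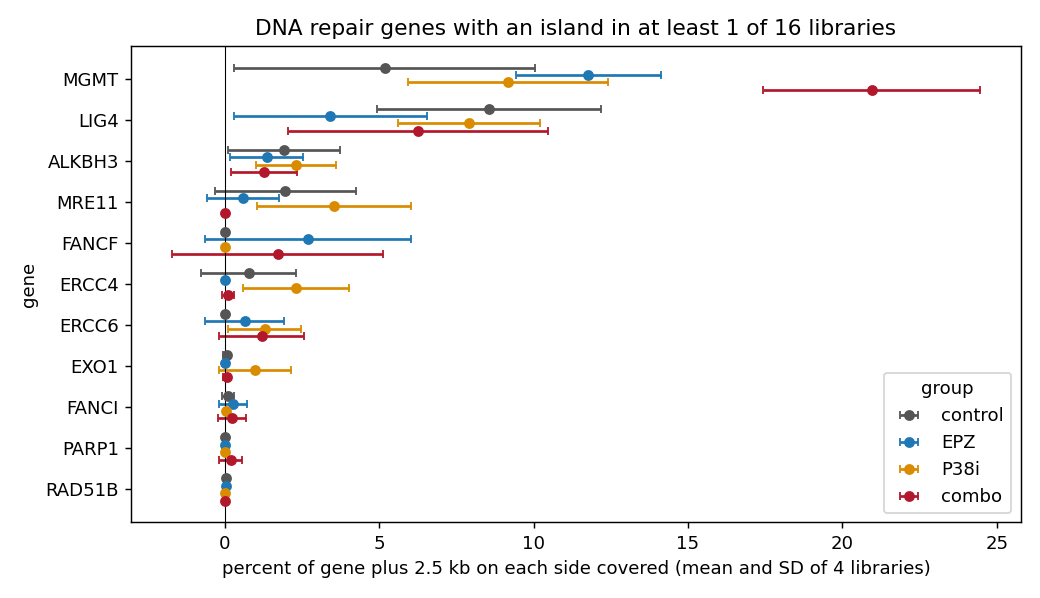
Percent covered for the 11 DNA repair genes reported here, MGMT included, that had an island in at least 1 of 16 libraries. Points are group means and bars the SD of 4 libraries; MGMT in combo is at 20.9%, and no other gene shown has a group mean above the 8.54% of LIG4 in control.

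Genes of similar length were tested in the same fit. Of 914 genes of 200 to 400 kb, 335 were tested, and their median coverage was 49.8% in control, 40.5% in EPZ, 52.5% in P38i and 47.4% in combo. Combo stood above control in 37.3% of them, with a median difference of -1.39 points, beside 43.6% and -1.05 points over all tested genes. A larger difference than that of MGMT was found in 8 of these 335 genes and in 276 of all 4105. MGMT was chosen for this difference, so a high rank was favoured by the choice and carries no test. Those nearest to MGMT in mean coverage were NXPH1, a neurexin ligand, CACHD1, a calcium channel partner, and PAK1, a kinase of the cytoskeleton. NXPH1 stood at 12.7% ± 4.76 in control and 11.4% ± 1.23 in combo (n = 4, adjusted p = 0.869 by limma). CACHD1 stood at 20.7% ± 3.85 in control, 4.23% ± 3.09 in EPZ and 8.66% ± 2.20 in combo, and fell in EPZ (adjusted p = 0.0247 by limma) but did not pass in combo (adjusted p = 0.0688). PAK1 stood at 4.27% ± 3.78 in EPZ and 19.6% ± 6.20 in P38i, and was lower in EPZ than in P38i (adjusted p = 0.0234 by limma).

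The genes whose coverage followed that of MGMT most closely over the 16 libraries, by Pearson r among 4099 tested genes over 2 Mb away, were of several kinds. OR3A1, an olfactory receptor, had r = 0.853, with 84.1% ± 7.31 in control and 98.4% ± 1.69 in combo. ZFP2 and ZNF454, zinc finger genes near each other on chromosome 5, had r = 0.824 and 0.820. L3MBTL4, of the MBT domain family, had r = 0.823, and TRAPPC9, of a vesicle tethering complex, r = 0.816. The median r was -0.0369, and 5% of genes lay above 0.538. These values were the highest of many and carry no test. L3MBTL4 stood at 34.0% ± 11.8 in control, 44.8% ± 3.76 in EPZ, 36.8% ± 5.85 in P38i and 53.0% ± 8.73 in combo (n = 4), and TRAPPC9 at 8.07% ± 2.51, 10.3% ± 1.07, 9.72% ± 1.44 and 13.2% ± 3.07. In each of these 5 genes combo had the highest group mean and control replicate 1 was the highest control, which choosing them by their likeness to MGMT over the same libraries favours. The deviations from group means had r from 0.524 to 0.827 with those of MGMT.

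Measures of the whole library followed MGMT less. Its coverage had a Pearson r of 0.114 with the number of islands, -0.0472 with the covered length and -0.160 with the median island width over the 16 libraries, and of -0.136, 0.341 and 0.223 within groups. These too are descriptions of 16 points. The part of depth and of local differences between libraries in the coverage of MGMT was not tested.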

How the data were processed

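H3K27me3 ChIPmentation libraries of MDA-MB-231 cells were used, 4 per group; the 16 IgG libraries had no file and were not analysed here. The deposited files hold only the chromosome, start and end of each island on hg38, with no other unit, score or count. The submitters' processing notes name the island caller SICER, the aligner Bowtie2 2.3.4.1, SAMtools 1.2 and bedtools 2.28.0, beside Picard, Trim Galore, cutadapt and FastQC. How the steps were ordered and how the caller was set is not given in the sources used here. Island bounds lay on windows of 200 bp, and neighbouring islands were at least 800 bp apart. Weak signal stays uncalled, so coverage depends on depth and on the caller.

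Groups and replicate numbers came from the sample titles. The percent covered was computed for 19974 genes of chromosomes 1 to 22 and X over the gene span and 2.5 kb on each side, and checked against bedtools 2.31.1 over 500 genes (largest difference 0). The 4105 genes with a mean of 5 to 95% were fitted with limma 3.58.1 in R 4.3.3 (1 fit of 16 libraries, trend and robust options), with Benjamini-Hochberg adjustment within each comparison and a threshold of 0.05. The script was tested on simulated data in which 200 of 4105 genes were moved between EPZ and P38i. It called 40% of those moved by 20 points and 85% of those moved by 40 points. A gene that was not called is thus not shown to be unchanged. Tables and figures were made with scipy 1.17.1, pandas 2.3.3, matplotlib 3.10.9 and numpy 2.4.6 under Python 3.11.15.

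MGMT, the gene lists, the tests and the alternatives were chosen with earlier results of these data known. Named were MGMT, protein-coding genes within 500 kb, DNA repair genes that passed or were most covered, the 5 genes most correlated with MGMT, and the 3 genes of 200 to 400 kb nearest to it in mean coverage. PARP1, ALKBH2 and the gene lists' other examples were added after their values were seen. Alternatives were another flank, no filter, only islands of at least 2 kb, lists of equal length, covered length as a covariate, a replicate block, an arcsine transformation, fits of 2 groups, an exact permutation test and leaving out each library. The labels do not say whether replicate numbers mark shared cultures or batches, and the numbers were not used to pair libraries in the main fit. A result on 1 further repair gene is not reported here.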

Additional observations from a re-analysis of the deposited data

Results flagged for a closer look

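In groups of 4, a library was singled out where its gap to the nearest other, divided by the range of the group, was above Dixon's 95% critical value. Of 40 groups checked 4 were singled out, where chance gives about 1 in 20. Control replicate 1 was singled out 3 times: for MGMT, at 12.4% against 2.27% to 3.63% in the other controls, for the 500 kb before MGMT, at 38.7% against 16.0% to 18.3%, and for EBF3, at 55.5% against 21.0% to 25.7%. These 3 measures come from 1 stretch of chromosome 10 and are not independent. That library also had the fewest islands (53290) and the largest median island width (7.40 kb) of the 16. Combo replicate 3 had no island over LIG4, at 0 against 7.91% to 9.17% in the other combo libraries.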

How the results depend on the processing

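The difference of MGMT between EPZ and P38i did not pass under any of the 26 alternatives, with adjusted p from 0.462 to 0.853 in limma. Its values ran from 1.12 to 5.21 points, and leaving out 1 library at a time gave 1.12 to 3.65 points. Some alternatives could change its p but not the difference itself, so they say nothing of its sign. These were no filter, the replicate block, the fit of 2 groups, the permutation test and leaving out a control or combo library. The difference between combo and control was 10.5 points with lists of equal length, in which the widest islands are kept and narrow ones dropped, against 15.8 points; the other alternatives gave values within 1 SD of it, and leaving out 1 library gave 14.2 to 18.2 points. No other DNA repair gene reported here was called against control, and none of LIG4, EBF3 and C10orf143 was called in any comparison, under the alternatives run; without a flank LIG4 could not be tested. With the replicate block the EPZ and P38i difference remained at 2.60 points (adjusted p = 0.579) and 264 genes were called in place of 382. Same-numbered libraries had correlations of -0.151 to 0.178, and 3 of 16 correlated best with their own number, so the numbers were not taken as pairs. The background count of 382 genes, 5 higher and 377 lower in EPZ, became 47 (11 and 36) when the covered length was a covariate, and 3 (1 and 2) when all lists were cut to equal length. Without EPZ replicate 1 or 2 it was 101 and 87, without P38i replicate 1, 2, 3 or 4 it was 117, 156, 85 and 740. Unknown read depth limits every value: an island missed in a shallow library cannot be told apart from an absent one.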
